A study of Mus musculus with 8 samples.

Results

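Motile cilia are beating hairs of the ependyma, the epithelium that lines the brain ventricles, and are also found on the choroid plexus around birth. The axoneme that moves them is a ring of doublet microtubules around a central pair, to which outer and inner dynein arms, radial spokes and a ruler of coiled-coil proteins are attached. Transcription factors of the RFX family and Foxj1 are known to switch on the genes of this machine, and cyclin O takes part in making the many basal bodies that a multiciliated cell needs. The genes described here were chosen by symbol: those starting with Dnahc (axonemal dynein heavy chains), Dnaic (dynein intermediate chains), Rsph with a digit (radial spoke proteins) or Tekt with a digit (tektins), and 16 single symbols of central pair, ruler, regulatory and other ciliary genes. The symbols matched 39 of the 23284 genes in the table. Of the 16 single symbols 15 were matched, and the remaining gene, Pifo, is listed there under its older symbol 1700027A23Rik in RefSeq and is described apart from the 39.

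RNA was sequenced from 4 libraries of wild-type C57BL/6J mouse brain cells at postnatal day 0 (P0) and 4 at postnatal day 8 (P8). Whole brains were dissociated, and cells were pulled out on magnetic beads with the anti-GLAST (ASCA-1) antibody, which binds the glutamate transporter of radial glia and astrocytes. The submitters' cell type labels are radial glia at P0 and astrocyte precursors at P8. The labels do not say whether the libraries of an age came from separate animals or from pools, so the p-values here reflect the spread among the sequenced libraries alone, which may be technical.

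Library totals ranged from 30708719 to 94308235 counts, so 3 counts equal between 0.0318 and 0.0977 CPM, the count scaled to a common library total. Values of 4 libraries follow in the order of replicates 1 to 4. Slc1a3, which encodes GLAST, stood at 295 ± 46.8 CPM at P0 and 4133 ± 603 CPM at P8. Summed over 12 radial glia markers the level was 2198 to 2881 CPM at P0 and 12822 to 15533 CPM at P8, and over 15 astrocyte markers 1849 to 2544 and 19306 to 21071 CPM. Both lists include Slc1a3. The 20 choroid plexus markers summed to between 33598 and 70369 CPM at P0 and to between 580.1 and 3979 CPM at P8, with none at 0 at either age. In such bulk libraries, fewer cells of a type and less RNA per cell cannot be told apart.

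Most axonemal genes were lower at P8, and a small set was higher. Of the 39 genes, 38 had enough counts to be tested, and 27 of these fell, 4 rose and 7 did not pass (adjusted p under 0.05 by edgeR's quasi-likelihood F test, with Benjamini-Hochberg adjustment over 16808 genes). The 27 that fell are 71.1% of the tested members, against 25% of all genes tested, and the 4 that rose (Tmem212, Ccdc153, Dnahc5 and Dnaic1) are 10.5%, against 24.5%. Called falls of 4-fold or more numbered 15 (39.5%), against 9.09% of all genes tested. The 4 libraries of P0 all stood above those of P8 for 26 of the 39 genes (26.3% of all genes tested), and those of P8 above P0 for 4 (20.9%). The median log2 fold change of the 38 was -1.44, and of all genes tested 0.044.

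**Figure D1:**
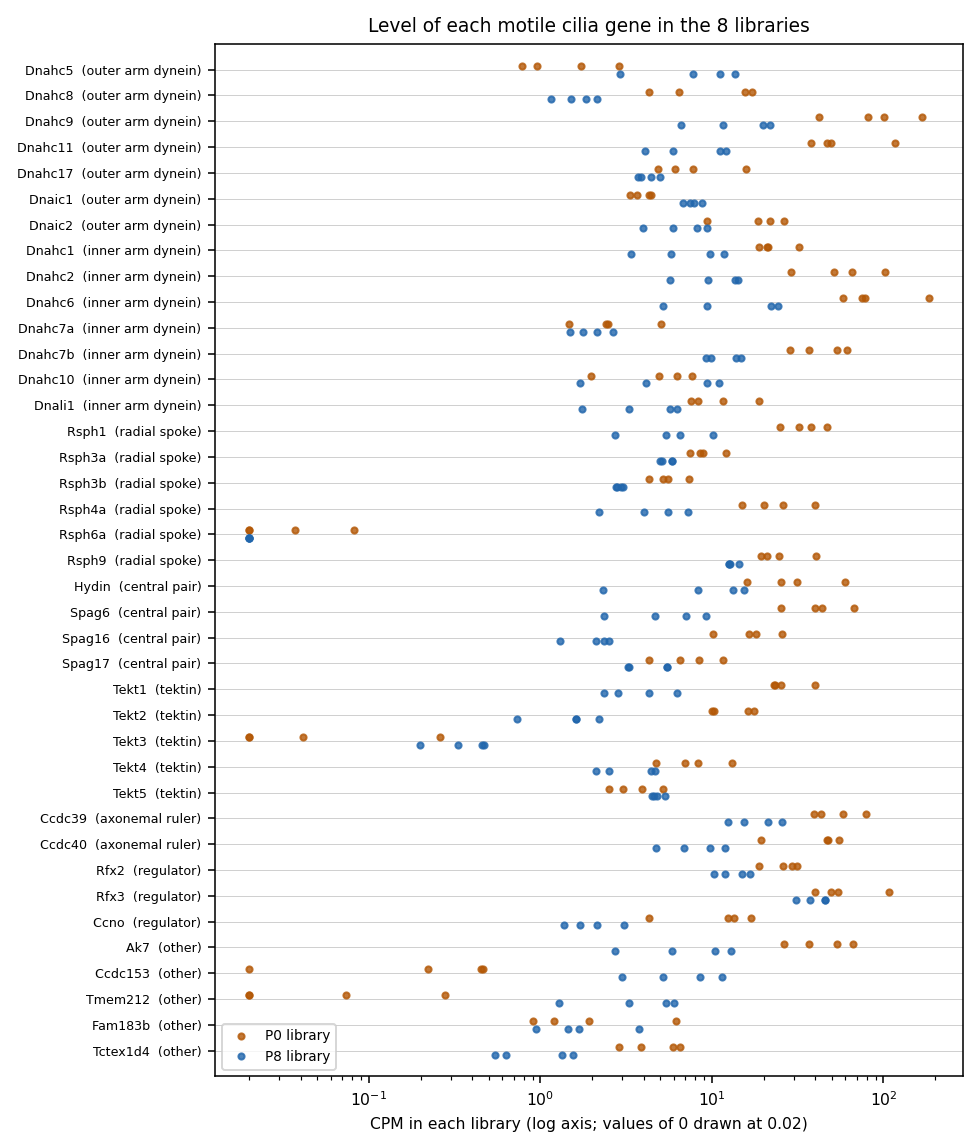
CPM of the 39 motile cilia genes in each library on a log axis, with values of 0 drawn at 0.02 and the structural class of each gene in brackets. Orange points (P0) lie to the right of blue points (P8) for 26 genes, and to the left for Dnahc5, Dnaic1, Ccdc153 and Tmem212.

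Summed over the 39 genes, the level was 582, 1423, 927 and 919 CPM at P0 and 233, 177, 358 and 368 CPM at P8. The ages did not overlap, and the mean fell from 963 ± 347 to 284 ± 94.2 CPM (SD, n = 4). In reads, the axonemal genes took between 0.0582% and 0.142% of a P0 library and between 0.0177% and 0.0368% of a P8 library. P0 2 was the highest P0 library for 21 of the 37 genes with a mean of at least 1 CPM at one age, and P0 1 the lowest for 32. P8 2 was the lowest P8 library for 29, with a median ratio of 0.505 to the mean of the other P8 libraries, against 0.946 over all genes tested that had a mean of at least 1 CPM at P8. P8 2 was also the lowest P8 library for summed neuron markers (128 CPM, the others 668 to 775) and oligodendrocyte lineage markers (1145 CPM, the others 3197 to 3732). It was the highest for microglia (5255 CPM, the others 1548 to 3797), radial glia (15533 CPM, the others 12822 to 13246), astrocyte (21071 CPM, the others 19306 to 20757) and endothelial markers (658 CPM, the others 299 to 634). Slc1a3 counts in both the radial glia and the astrocyte sum. That gene alone stood at 5029 CPM in P8 2 and at 3718 to 3919 CPM in the other P8 libraries. The part of these cell types in the axonemal level of P8 2 was not tested.

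Choroid plexus markers moved in the same direction as the axonemal genes, and further. All 20 fell (100%, against 25% of all genes tested), with a median log2 fold change of -4.62. The sum of 19 of them without Ttr, the thyroid hormone carrier that dominates the list, was 6689, 11791, 11428 and 8666 CPM at P0 and 494, 418, 404 and 992 CPM at P8. P0 1 was thus lowest in both sums and P8 4 highest in both, but P8 3 had the second highest axonemal sum at P8 and the lowest choroid plexus sum. The 8 genes matched from the ependymal list summed to between 275 and 422 CPM at P0 and between 126 and 227 CPM at P8. Of these 4 were lower (50%, against 25% of all genes tested), 1 was higher (12.5%, against 24.5%) and 3 did not pass. No sum of this list was taken without Foxj1, a regulator of cilia genes. Foxj1 alone stood at 178 ± 66.6 CPM at P0 and 33.4 ± 15.5 CPM at P8. The ependymal list is therefore not read as a measure separate from the cilia genes. The male germ line list was near 0 apart from Odf2, with 5 of its 9 genes at 0 in every P0 library and 4 in every P8 library. Endothelial markers (2212 ± 335 and 529 ± 164 CPM) and pericyte, smooth muscle and meningeal markers (8019 ± 2269 and 786 ± 294 CPM) had lower sums at P8 as well, as did red blood cell markers (548 ± 172 and 166 ± 58.3 CPM). Other lists had higher sums at P8, namely neuron (61.2 ± 37.2 and 582 ± 306 CPM), oligodendrocyte lineage (794 ± 62.6 and 2852 ± 1160 CPM) and microglia markers (1048 ± 475 and 3311 ± 1588 CPM), beside the astrocyte and radial glia lists. The part of choroid plexus, ependyma and these other cells in the change of the axonemal genes was not tested.

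**Figure D2:**
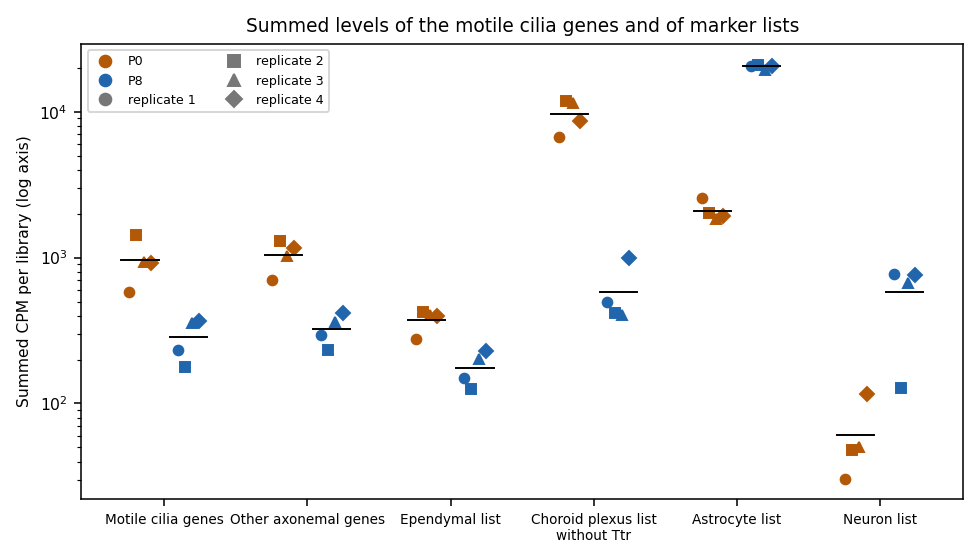
Summed CPM per library (log axis) of the 39 motile cilia genes and of 5 other lists; marker shape gives the replicate number and black bars the mean of 4. The motile cilia sums span 582 to 1423 CPM at P0 and 177 to 368 CPM at P8, and the choroid plexus sums without Ttr 6689 to 11791 and 404 to 992 CPM.

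The outer dynein arm, which gives the cilium most of its beating force, is built on heavy chains (the motor subunits) and intermediate chains that hold them to the doublet. Dnahc9, the heavy chain of the distal cilium, stood at 42.0, 168, 100.1 and 81.6 CPM at P0 and at 11.6, 6.60, 21.9 and 19.8 CPM at P8. Every P0 library lay above every P8 library, and the fall was 6.24-fold (log2 fold change -2.64 ± 0.46 SE, edgeR adjusted p = 0.00109). Its relative Dnahc11, which serves in left-right patterning as well as in airway cilia, stood at 37.7, 117, 49.5 and 46.6 CPM at P0 and at 5.91, 4.05, 12.1 and 11.2 CPM at P8. The P0 libraries again stood apart above the P8 libraries, by 7.20-fold (edgeR adjusted p = 0.000574). Dnahc8, best known as a heavy chain of the sperm flagellum, was at 17.02, 15.5, 4.30 and 6.40 CPM at P0 and at 1.15 to 2.14 CPM at P8 (edgeR adjusted p = 0.00113). Its order at P0 differed from that of Dnahc9, with P0 1 highest. Dnahc17, also known from sperm, was called lower (8.63 ± 4.96 and 4.24 ± 0.57 CPM, edgeR adjusted p = 0.0475), but its ages overlapped. Leaving out single libraries removed this call in 6 of 8 cases, with the value furthest off without P0 3 (log2 fold change -0.48 in place of -0.94, edgeR adjusted p = 0.141).

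Dnahc5, the heavy chain that sits beside Dnahc9 or Dnahc11 in the same arm and is a frequent cause of primary ciliary dyskinesia in people, moved the other way. It was at 0.78, 2.87, 0.952 and 1.72 CPM at P0 and at 7.80, 2.90, 13.7 and 11.1 CPM at P8. The ages did not overlap, although P8 2 lay only just above P0 2, and the rise was 5.93-fold (log2 fold change 2.57 ± 0.53 SE, edgeR adjusted p = 0.00311). Intermediate chain genes parted in the same way. Dnaic1 rose, from 3.63, 4.40, 3.33 and 4.28 CPM at P0 to 6.78, 7.44, 7.81 and 8.78 CPM at P8, a change of 2.08-fold (edgeR adjusted p = 0.00141). Its partner Dnaic2 fell 2.63-fold, from 9.32, 26.2, 18.5 and 21.8 CPM to 5.92, 3.94, 8.19 and 9.29 CPM (edgeR adjusted p = 0.00715). For Dnaic2 the lowest P0 library and the highest P8 library differed by less than 0.1 CPM.

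Because the partners were read in the same libraries, their ratio per length (RPKM, which is CPM per kilobase of gene) was compared within each library; the pairs were chosen after their values were seen, so the ratios are a description with no test. Dnahc5 over Dnahc9 was 0.0164, 0.0150, 0.00839 and 0.0187 at P0 and 0.592, 0.388, 0.550 and 0.496 at P8. Dnahc5 thus stayed below Dnahc9 per length in every library of both ages. Dnahc5 over Dnahc11 was 0.0173 to 0.0334 at P0 and 0.645 to 1.19 at P8. Dnaic1 over Dnaic2 was 0.449, 0.194, 0.208 and 0.227 at P0 and 1.32, 2.18, 1.10 and 1.09 at P8. In all 3 ratios each P8 library, P8 2 included, lay above each P0 library.

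**Figure D3:**
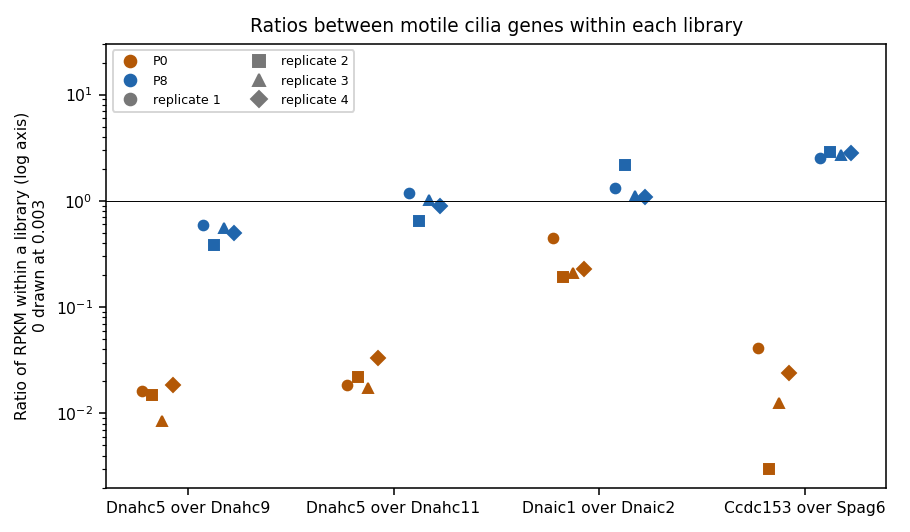
Ratio of RPKM between pairs of motile cilia genes within each library (log axis, 0 drawn at 0.003; orange P0, blue P8, marker shape gives the replicate number). Dnahc5 over Dnahc9 spans 0.00839 to 0.0187 at P0 and 0.388 to 0.592 at P8, and Ccdc153 over Spag6 lies at 0.0408 or below at P0 and between 2.53 and 2.86 at P8.

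The inner dynein arms shape the bend of the cilium. Of 7 inner arm genes 5 fell (71.4%, against 25% of all genes tested) and 2 did not pass, with a median log2 fold change of -1.54. Dnahc6, the highest inner arm heavy chain per length at P0 (7.80 ± 4.58 RPKM), was at 57.9, 185, 77.8 and 74.5 CPM at P0 and at 9.42, 5.21, 24.2 and 22.2 CPM at P8. It fell 6.20-fold without overlap (edgeR adjusted p = 0.00234). Dnahc2, a heavy chain of the double-headed inner arm dynein, fell 5.48-fold from 62.05 ± 30.8 to 10.8 ± 3.97 CPM (edgeR adjusted p = 0.000664). Dnahc10, the other heavy chain of that dynein, was at 1.97, 4.88, 6.26 and 7.64 CPM at P0 and at 4.15, 1.71, 10.9 and 9.40 CPM at P8. The ages overlapped fully, and Dnahc10 did not pass (log2 fold change 0.39 ± 0.55 SE, edgeR adjusted p = 0.581). Dnahc1 fell 2.91-fold (23.3 ± 5.98 to 7.65 ± 3.78 CPM) and the single-headed heavy chain gene Dnahc7b 3.58-fold (44.9 ± 14.9 to 11.9 ± 2.74 CPM). Dnahc7a was at 2.84 ± 1.52 and 2.003 ± 0.50 CPM and did not pass (edgeR adjusted p = 0.387). Dnahc7a and Dnahc7b are 97.9% identical over the 612 bases of the annotated Dnahc7a transcript. The authors' deposited length of Dnahc7a is 12272 bases, and identity beyond the 612 was not measured. The split of reads between Dnahc7a and Dnahc7b is uncertain. The light chain gene Dnali1 fell 2.62-fold (edgeR adjusted p = 0.0203), but did not pass once P0 2 (adjusted p = 0.0572) or P8 1 (adjusted p = 0.0591) was left out.

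Radial spokes pass signals from the central pair to the dynein arms. All 5 tested spoke genes fell (100%, against 25% of all genes tested), with a wide range of size. The spoke head gene Rsph1 was at 25.1, 37.9, 32.3 and 46.6 CPM at P0 and at 5.43, 2.70, 6.53 and 10.2 CPM at P8, and fell 5.46-fold (edgeR adjusted p = 0.000397). Rsph4a, another head protein, fell 5.04-fold from 25.2 ± 10.7 to 4.75 ± 2.15 CPM (edgeR adjusted p = 0.000901). For both genes the ages stood well apart. Rsph9, also of the spoke head, fell only 1.91-fold, from 20.9, 19.3, 24.5 and 40.7 CPM to 12.6, 12.6, 12.8 and 14.3 CPM (edgeR adjusted p = 0.00886). Its P8 libraries were nearly level, P8 2 included. The stalk genes Rsph3a and Rsph3b fell 1.61-fold and 1.84-fold (edgeR adjusted p = 0.0193 and 0.0101), and the Rsph3a call was lost without P0 4, P8 1 or P8 3 (adjusted p from 0.0555 to 0.0578). They are 99.2% identical over 1921 aligned transcript bases, so reads cannot be divided between them with certainty. Rsph6a, known from the testis, had 4 and 2 counts in P0 1 and P0 4 and 0 elsewhere, and was not tested.

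The central pair apparatus sets the plane and timing of the beat. Spag16 was at 10.1, 25.5, 16.4 and 18.2 CPM at P0 and at 2.12, 1.29, 2.34 and 2.51 CPM at P8. Its fall of 8.04-fold (log2 fold change -3.01 ± 0.31 SE, edgeR adjusted p = 5.14e-05) left no overlap. Spag6 stood at 25.2, 67.0, 40.1 and 43.9 CPM at P0 and at 4.67, 2.36, 7.06 and 9.23 CPM at P8, a fall of 7.21-fold (edgeR adjusted p = 0.000398). Hydin, a giant protein whose loss causes hydrocephalus in mice, was at 15.996, 59.4, 31.4 and 25.4 CPM and at 8.25, 2.32, 15.3 and 13.2 CPM. It fell 3.24-fold (edgeR adjusted p = 0.0259) with P0 1 barely above P8 3, and the call was lost without P0 2 (adjusted p = 0.0779) or P8 1 (adjusted p = 0.0663). Spag17 was at 7.71 ± 3.09 and 4.36 ± 1.25 CPM with overlapping ages and did not pass (edgeR adjusted p = 0.0774). It was called lower without P0 1 (adjusted p = 0.023).

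Tektins are filaments inside the wall of the doublet microtubules. Tekt2 had the largest fall of all 39 genes, from 10.1, 10.3, 17.6 and 16.1 CPM at P0 to 1.62, 0.726, 1.62 and 2.20 CPM at P8 (8.34-fold, log2 fold change -3.06 ± 0.35 SE, edgeR adjusted p = 8.77e-05). Tekt1 fell 6.77-fold, from 23.4, 22.9, 25.4 and 40.02 CPM to 2.83, 2.36, 4.29 and 6.30 CPM (edgeR adjusted p = 0.00011). The ages of both stood far apart. Tekt4 fell 2.31-fold (8.28 ± 3.56 to 3.42 ± 1.30 CPM, edgeR adjusted p = 0.0195), with the call lost without P0 4 (adjusted p = 0.056) or P8 1 (adjusted p = 0.0596). Tekt5, known from sperm, was at 3.66 ± 1.17 and 4.77 ± 0.38 CPM and did not pass (edgeR adjusted p = 0.157), but was called higher without P0 2 (adjusted p = 0.0381). Tekt3 stayed below 0.5 CPM in every library and did not pass, with an estimate above 0 (log2 fold change 2.21 ± 0.97 SE, edgeR adjusted p = 0.0835). Its counts were 2, 0, 0 and 14 at P0 and 31, 14, 29 and 30 at P8, so most of its P0 reads came from P0 4.

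Both genes of the coiled-coil ruler, Ccdc39 and Ccdc40, which fixes the spacing of inner arms and spokes, fell. The difference in size between their falls was not tested. Ccdc39 was at 39.3, 79.6, 58.5 and 43.5 CPM at P0 and at 12.4, 15.3, 21.3 and 25.6 CPM at P8 (2.81-fold, edgeR adjusted p = 0.00142). Ccdc40 was at 19.4, 55.0, 46.9 and 47.6 CPM and at 6.85, 4.74, 11.9 and 9.72 CPM (4.84-fold, edgeR adjusted p = 0.000573). Neither gene overlapped between ages. The adenylate kinase gene Ak7 fell 5.48-fold, from 45.7 ± 17.7 to 8.00 ± 4.56 CPM (edgeR adjusted p = 0.00159), and Tctex1d4, of the Tctex1 family of dynein light chains, 4.54-fold, from 4.79 ± 1.71 to 1.01 ± 0.50 CPM (edgeR adjusted p = 0.002). Pifo, read as 1700027A23Rik, fell 8.79-fold from 11.5, 18.3, 21.9 and 36.0 CPM to 2.39, 1.29, 1.65 and 4.14 CPM (edgeR adjusted p = 0.000327).

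Tmem212 and Ccdc153, which serve as markers of ependymal cells in mouse brain, had the largest rises. Of the 8 genes matched from the ependymal list, 4 fell (50%, against 25% of all genes tested), 1 rose (12.5%, against 24.5%) and 3 did not pass. Their median log2 fold change was -1.17. That list includes Foxj1 and, as stated above, is not a measure separate from the cilia genes. The part of ependymal cells in the rise of Tmem212 and Ccdc153 was not tested. Tmem212 was at 0 CPM in P0 1 and P0 2, at 0.0732 and 0.278 CPM in P0 3 and P0 4, and at 3.29, 1.28, 5.37 and 6.01 CPM at P8. It was close to absent at P0 and read in each P8 library (log2 fold change 5.41 ± 0.94 SE, edgeR adjusted p = 0.00112), and its P0 mean of 0.0879 CPM was 0.0244 CPM without P0 4. Ccdc153 was at 0.452, 0, 0.22 and 0.464 CPM at P0 and at 5.20, 2.97, 8.47 and 11.5 CPM at P8 (log2 fold change 4.62 ± 0.73 SE, edgeR adjusted p = 0.000646). In both genes P8 2 was lowest and P8 4 highest at P8, the order that the falling genes Spag6 and Tekt1 also showed there. Against Spag6 the RPKM of Ccdc153 stood between 2.53 and 2.86 in the 4 P8 libraries. Fam183b was at 0.903, 1.20, 1.92 and 6.14 CPM and at 1.68, 0.939, 1.44 and 3.74 CPM and did not pass (log2 fold change -0.32, edgeR adjusted p = 0.698), with the direction resting on P0 4 (0.61 without it).

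**Figure D4:**
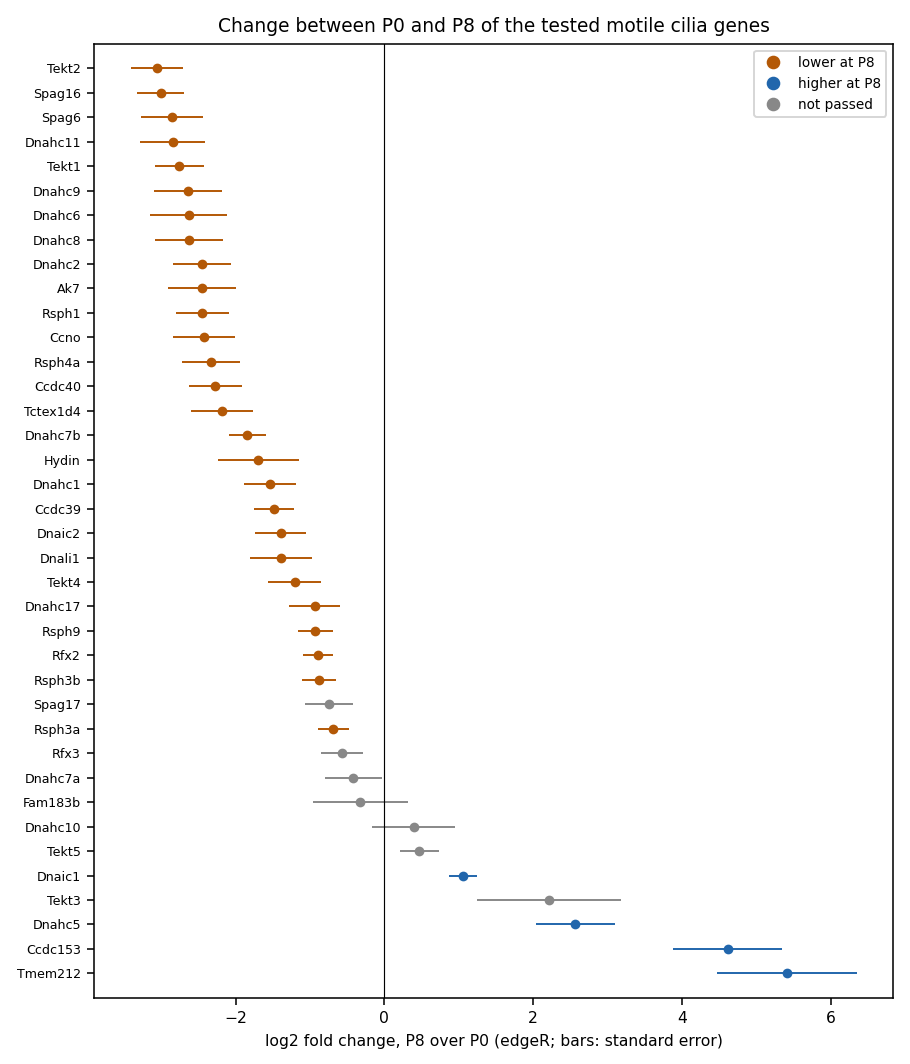
log2 fold change of P8 over P0 for the 38 tested motile cilia genes from the edgeR fit, with standard errors. Values run from -3.06 (Tekt2) to 5.41 (Tmem212); 27 genes are called lower, 4 higher and 7 (grey) did not pass.

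The levels per length show how the mix of axonemal transcripts differed. Of the summed RPKM of the 39 genes at P0 (254 ± 65.2), Rsph1 made up 12.1% ± 1.37, Rsph9 11.3% ± 3.52, Tekt1 8.08% ± 2.2 and Spag6 6.90% ± 1.29 (SD, n = 4). At P8 (89.2 ± 27.1 RPKM) Rsph9 led with 16.6% ± 4.57, followed by Ccdc153 with 6.86% ± 1.81, Tmem212 with 5.86% ± 1.97 and Ccdc39 with 5.84% ± 1.03. Ccdc153 and Tmem212 had made up 0.12% ± 0.106 and 0.0432% ± 0.0616 at P0. These shares are a description with no test.

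Among the regulators Ccno, the cyclin of basal body amplification, fell most. It was at 4.31, 16.9, 13.5 and 12.4 CPM at P0 and at 1.71, 1.37, 3.09 and 2.15 CPM at P8 (5.37-fold, edgeR adjusted p = 0.000965). The transcription factor gene Rfx2 was at 18.8, 29.4, 31.5 and 25.8 CPM and at 10.3, 11.9, 16.7 and 14.99 CPM, a smaller fall of 1.86-fold without overlap (edgeR adjusted p = 0.00448). Rfx3 was at 39.98, 108, 54.2 and 49.5 CPM at P0 and at 37.4, 30.8, 45.9 and 45.6 CPM at P8. Apart from P0 2 its libraries were close together, and it did not pass (log2 fold change -0.58 ± 0.28 SE, edgeR adjusted p = 0.12).

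RFX proteins bind the X-box, an inverted repeat in the promoters of many cilia genes, so the promoters of the axonemal genes were searched for it. Windows from 250 bases before to 50 bases after the annotated start (RefSeq, GRCm38.p6) were found for 37 of the 39 genes. Both strands were searched for GTTNCC followed, after a spacer of 2 or 3 bases of any kind, by GNAAC. A match stood in 9 of the 37 genes (24.3%) and in 461 of 27025 genes with a window (1.71%). The shorter string GTTGCC, which the pattern can contain, stood in 16 (43.2%) and in 14.1% of all. Of the other motile cilia genes described below, 85 had a window. The pattern stood in 14 of these 85 (16.5%) and GTTGCC in 42 (49.4%), so neither was particular to the genes chosen here. Of the 9 genes with a match 7 fell (of 25 that fell and had a window), Dnaic1 rose (of 4) and Fam183b did not pass (of 7). The matches are shown here in capitals with 8 flanking bases on each side, 5′ to 3′ on the gene's strand (the pattern itself may lie on the other), so that their likeness can be seen.
Dnahc9: ttccaccaGTTTCCCAGCAACaacgacgc
Dnaic1: gcctgtcgGTTGCTGGGTAACcgcgtcag
Dnaic2: cggccaggGTTGCTAGGCAACtggtaaac
Rsph3b: aacctcggGTTGCTCGGCAACcgatgggg
Hydin: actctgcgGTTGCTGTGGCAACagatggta
Spag16: ggcaacgcGTTGCCGTAGTAACtgcggacg
Tekt2: agggggcgGTTGCTCGGCAACcagagccg
Tekt4: tatacaatGTTCCTTAGGCAACcaggaacc
Fam183b: gaacatccGTTGCCTGGAAACtgtagaag
Tekt2 and Rsph3b hold the same 13 bases. In Dnaic1, which rose, and Dnaic2, which fell, the match starts 19 and 33 bases before the annotated start. A match is a description of letters and was not tested for binding.

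The promoters of the genes with the largest fall and the largest rise are shown for comparison. That of Tekt2 (chr4:126325639-126325938, minus strand, GRCm38.p6) holds the match, in capitals, 29 bases before the start. It is 1 of 3 annotated for the gene, of which another holds the same match and the third (chr4:126325386-126325685) holds none. That of Tmem212 (chr3:27896319-27896618, minus strand) holds no match.
Tekt2: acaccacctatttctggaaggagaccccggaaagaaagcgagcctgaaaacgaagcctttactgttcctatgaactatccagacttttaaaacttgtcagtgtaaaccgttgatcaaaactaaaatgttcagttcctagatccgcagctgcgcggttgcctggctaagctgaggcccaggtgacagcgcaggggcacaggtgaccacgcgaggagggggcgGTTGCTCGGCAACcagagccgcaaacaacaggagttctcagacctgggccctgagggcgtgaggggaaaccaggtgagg
Tmem212: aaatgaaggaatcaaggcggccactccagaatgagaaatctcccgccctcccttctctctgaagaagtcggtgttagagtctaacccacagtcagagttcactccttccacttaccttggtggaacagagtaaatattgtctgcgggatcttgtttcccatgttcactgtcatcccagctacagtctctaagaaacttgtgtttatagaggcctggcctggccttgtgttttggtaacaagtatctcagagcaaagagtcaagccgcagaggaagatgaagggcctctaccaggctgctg
Both genes were matched to the mm9 assembly by symbol, Tekt2 at chromosome 4, 125999365 to 126002932, and Tmem212 at chromosome 3, 27764988 to 27795290, each on the minus strand (GENCODE M1). There Dnahc5 lies at chromosome 15, 28133507 to 28401800, and Ccdc153 at chromosome 9, 44048760 to 44055389, both on the plus strand.

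Other genes of the same machine, taken from 5 lists, also fell more often than they rose. Of 95 tested 61 fell (64.2%, against 25% of all genes tested), 7 rose (7.37%, against 24.5%) and 27 did not pass, with a median log2 fold change of -1.51 (beside -1.44 for the 38 axonemal genes and 0.044 for all genes tested). The master regulator Foxj1 was at 96.1, 254, 202 and 161.5 CPM at P0 and at 26.7, 14.6, 46.8 and 45.5 CPM at P8, a fall of 5.10-fold (edgeR adjusted p = 0.000791). At each age its libraries ranked in the same order as those of Dnahc9. Gm606, which RefSeq lists as Gmnc, an early switch of the multiciliated fate, fell 38.9-fold from 33.9, 49.2, 55.2 and 31.3 CPM to 0.657, 0.583, 0.618 and 2.31 CPM (edgeR adjusted p = 2.91e-05), and its P8 mean of 1.04 CPM was 0.62 CPM without P8 4. The p53 family gene Trp73, known from the differentiation of multiciliated cells, fell from 34.1 ± 12.5 to 4.24 ± 2.48 CPM. Of the 12 tested regulators 5 fell (41.7%), 3 rose and 4 did not pass, with a median log2 fold change of -0.54. The share that rose, 25%, was close to the 24.5% of all genes tested. Rfx4, an RFX factor of neural progenitors and astrocytes, rose from 17.3 ± 5.7 to 100.2 ± 4.37 CPM, the opposite of Rfx2, and E2f5 and Tfdp1 rose by less than 2-fold.

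Centriole amplification genes gave 6 lower (42.9%, against 25% of all genes tested), 1 higher (7.14%, against 24.5%) and 7 that did not pass of 14. Their median log2 fold change was -0.17, nearer to the 0.044 of all genes than to the -1.44 of the axonemal genes. Ccdc67, which RefSeq lists as Deup1 and which builds the deuterosome where new centrioles form, fell from 13.999 ± 6.89 to 2.70 ± 1.27 CPM with overlapping ages (edgeR adjusted p = 0.00446). Fam92b, of the basal body, fell from 9.11 ± 2.25 to 1.06 ± 0.49 CPM, and Ofd1 and Cep152, centriole genes also needed by dividing cells, fell by less than 2-fold. The Cep152 call was lost without P0 3, P8 1, P8 3 or P8 4 (adjusted p from 0.0512 to 0.0763). Dynein assembly and docking genes gave 9 lower (60%), 1 higher and 5 that did not pass of 15. The docking genes Ttc25 (20.02 ± 5.07 to 1.94 ± 1.23 CPM) and Ccdc114 (54.5 ± 18.5 to 8.50 ± 2.39 CPM) and the assembly factor genes Ccdc103 and Zmynd10 had the largest falls, of between 5.21-fold and 9.90-fold. Spag1, another assembly factor gene, rose from 7.64 ± 1.76 to 12.2 ± 1.19 CPM. Of 12 genes of the nexin-dynein regulatory complex and ruler-associated proteins 9 fell (75%) and 3 did not pass. Ccdc135, listed by RefSeq as Drc7, fell from 63.9 ± 15.3 to 5.54 ± 3.19 CPM and Ccdc65 from 7.75 ± 2.21 to 1.56 ± 0.84 CPM, with Ccdc113 and Iqcd between them in fold.

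Of 42 other axonemal genes 32 fell (76.2%, against 25% of all genes tested), 2 rose (4.76%, against 24.5%) and 8 did not pass. Lrriq1 fell 22.8-fold from 44.2 ± 22.1 to 1.86 ± 1.22 CPM, the kinesin gene Kif27 13.1-fold from 48.7 ± 17.7 to 3.56 ± 1.59 CPM, and Wdr96, listed by RefSeq as Cfap43, 12.6-fold from 99.5 ± 37.9 to 7.55 ± 3.4 CPM (edgeR adjusted p from 6.12e-05 to 0.000186). Efhc2 fell from 6.25 ± 1.31 to 0.68 ± 0.37 CPM. Nme7 rose from 30.9 ± 5.61 to 46.7 ± 0.68 CPM. Sntn, which encodes sentan of the ciliary tip, was singled out after its values were seen. It had no read in any P0 library and stood at 0.414, 0.27, 1.08 and 1.16 CPM at P8. Against 3 counts over the 4 P0 libraries together it was at least 45.8-fold higher (edgeR adjusted p = 0.00132). Its P8 libraries ranked like those of Tmem212, with P8 2 lowest and P8 4 highest. With Sntn at this bound the median of the 95 stayed at -1.51.

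**Figure D5:**
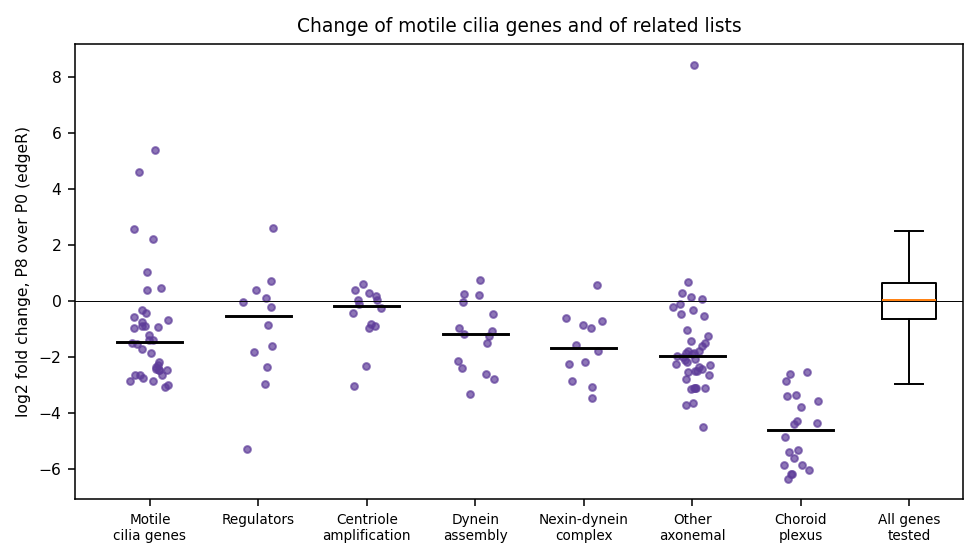
log2 fold change of P8 over P0 (edgeR) for each tested gene of the motile cilia set, 5 lists of other cilia genes and the choroid plexus list; black bars are medians, and the box shows all genes tested (quartiles, whiskers at the 5th and 95th percentiles). Medians are -1.44 for the motile cilia genes, -1.97 for other axonemal genes, -4.62 for choroid plexus markers and 0.044 for all genes; the topmost point is Sntn, whose fitted value depends on the prior count.

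For 37 of the 39 genes the authors' deposited table gives a comparison of P8 with P0, with 4 higher and 26 lower at a false discovery rate under 0.05. The share of all genes called in the authors' own comparison was not counted, so these counts have no background of their own. The calls were the same as here for 36, the exception being Rsph3a, which did not pass in the authors' deposited table. Exons of 6 genes overlap an exon of a protein-coding gene on the other strand in the mm9 annotation: Dnahc11 with Cdca7l, Dnahc17 with Pgs1, Dnali1 with Gnl2, Spag17 with Wdr3, Ccdc39 with Ttc14 and Tctex1d4 with Plk3. The library kit does not mark strand, so reads in those exons may belong to either gene.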

How the data were processed

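Per the labels' protocols, the PicoPure kit yielded the RNA and the TruSeq RNA kit v2 the libraries. The submitters' processing notes name TopHat and mm9; a read counter is not given in the sources used here. In 1 table the authors deposited whole-number counts, CPM values and RPKM values per gene and library, per the file headers, with their own log2 fold changes and p-values. CPM and RPKM equal the counts scaled by column total and gene length (relative difference at most 8.71e-12). No 2 libraries were identical, and within an age pairs differed by more than sampling noise (chi-square per degree of freedom at least 76.4).

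Differences in counts between the ages came from edgeR 4.0.16 under R 4.3.3 (filterByExpr with minimum count 10 and total 15, TMM, glmQLFit, glmQLFTest, two-sided, all 8 libraries, no covariate), with Benjamini-Hochberg adjustment over 16808 genes and a threshold of 0.05; the method was tested on simulated data. Each standard error (SE) is the log2 fold change over the root of its F value. Levels are mean ± SD over 4 libraries, and the floor of 3 counts covers counting error only. DESeq2 1.42.0, other scalings, no filter, a replicate block and leaving out each library were tried. Genes with a mean of at least 1 CPM at one age are named, and from each other cilia list up to 4 called genes with the largest change. Members and lists were chosen with earlier results of these data known. Some listed symbols were not matched in the table and were not analysed here.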

Additional observations from a re-analysis of the deposited data

Results flagged for a closer look

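In 4 of 74 groups of 4 libraries (5.41%) the gap between an end library and its neighbour took more of the range than Dixon's 95% value allows; chance gives about 1 in 20. Dnahc11 stood at 117 CPM and Dnahc6 at 185 CPM in P0 2, where the other P0 libraries lay at 49.5 or below and at 77.8 or below. Tekt1 stood at 40.02 CPM in P0 4, against 22.9 to 25.4 CPM in the other P0 libraries. Rsph9 stood at 14.3 CPM in P8 4, against 12.6 to 12.8 CPM in the other P8 libraries. All 4 genes were called lower at P8 in every fit that left out 1 library.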

How the results depend on the processing

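The count of axonemal genes called higher was 4 with RLE size factors, library totals, DESeq2, no filter or the replicate block, and 4 to 5 when 1 library was left out. The count called lower was 27 with RLE or library totals, 28 with DESeq2, 26 with no filter and 22 to 28 with 1 library left out. Calls over all genes, in either direction, moved as well. They numbered 8321 in the main fit, 8313 with RLE, 8206 with library totals, 9124 with DESeq2 and 8403 with no filter. With 1 library left out they numbered 6979 to 8360. The lowest of both counts, 22 and 6979, came from the run without P8 1. Of 37 genes named, 29 kept both their call and their direction under every alternative run. The others are given beside their results. Fam183b alone changed direction, without being called in any run (log2 fold change -0.82 to 0.61 with 1 library left out, the latter without P0 4). Under no filter Dnahc17 was not called (edgeR adjusted p = 0.0531), and DESeq2 called Spag17 lower (DESeq2 adjusted p = 0.045). Replicate numbers are shared by the ages but did not pair them: same-numbered libraries had correlations of deviations from -0.131 to 0.0641, and not every library correlated best with its own number. With the replicate block 24 were called lower, without Dnahc17, Dnali1 and Hydin, and 7355 of all genes in place of 8321. Depth limits Tmem212 and Sntn at P0, where 3 counts equal up to 0.0977 CPM. Ccdc153 had 0 counts in P0 2 but 22, 12 and 25 in P0 1, P0 3 and P0 4.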
